A study of Mus musculus with 2 samples.

Results

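De novo lipogenesis genes make up a set of 10 genes, Acly, Acaca, Acacb, Fasn, Scd1, Elovl6, Me1, Thrsp, Mlxipl and Pnpla3, which encode the enzymes that build fatty acids from citrate and 3 proteins that regulate this route or act on the lipid it makes. Their rows were taken by gene symbol, and all 10 had 1 row each among 33224 gene symbols. The set itself was chosen with earlier results of these data known. Levels are given as FPKM, fragment counts scaled to transcript length and to library depth. An average of 1 FPKM or more over both libraries was reached by 9 of the 10, and by 11723 of all symbols. Pnpla3 did not reach it and is described apart.

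The samples were livers of male C57BL/6 mice 48 hr after partial hepatectomy (PH), the surgical removal of most of the liver, which sets off regrowth. One group was wild type (WT) and the other PPARbeta-null (KO), which lacks the nuclear receptor PPARβ encoded by Ppard. Each group was 1 library, both with a labelled age of 4 months, while the protocol gives 3 to 5 months. The time after PH comes from the study's text and not from the labels. Food was freely available. The number of mice behind a library, the deleted part of Ppard and the hour of collection are not given in the sources used here. With 1 library per genotype there was no test over mice, so every fold below compares 2 libraries and has no replicate check. The table's headers name a different sequencing lane for each library, and lane and genotype cannot be told apart.

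De novo lipogenesis turns surplus sugar into fat in the cytosol of the hepatocyte. Citrate leaves the mitochondrion and is split to acetyl-CoA by ATP citrate lyase, acetyl-CoA carboxylase makes malonyl-CoA from it, and fatty acid synthase joins the units into palmitate with NADPH. Elongation and desaturation then give the oleate that is stored as triglyceride. Insulin acts on the transcription of this route through SREBP1c, the product of Srebf1, and sugar acts through ChREBP, the product of Mlxipl.

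All 10 genes had a lower FPKM in the KO than in the WT library, as did 75.6% of the 11723 genes that averaged 1 FPKM or more. Of the 9 that averaged 1 FPKM or more, 7 were at least 2-fold lower in KO, namely Acly, Acaca, Acacb, Fasn, Scd1, Elovl6 and Thrsp, and none was 2-fold higher. Among all 11723 genes, 8.23% were at least 2-fold lower in KO and 1.71% at least 2-fold higher. With the line at 1.5-fold, all 9 were lower, against 19.1% of all genes. Over the 9 genes, the log2 KO/WT had a median of -1.58, which is 2.99-fold lower in KO, whereas the median of all genes was -0.24. These log2 values were computed with 0.1 FPKM added to both values, and folds of single genes are ratios of the FPKM as deposited. Most genes were thus slightly lower in KO, and after centring on the median of all genes that of the lipogenesis genes was -1.34. Mlxipl, at -0.42 after this centring, then fell short of 1.5-fold. Of all genes past 2-fold, 82.8% were lower in KO as deposited, 68.2% after this centring and 64.5% with libraries scaled to equal upper quartiles. In bulk liver, fewer cells of a type and less RNA per cell cannot be told apart.

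**Figure D1:**
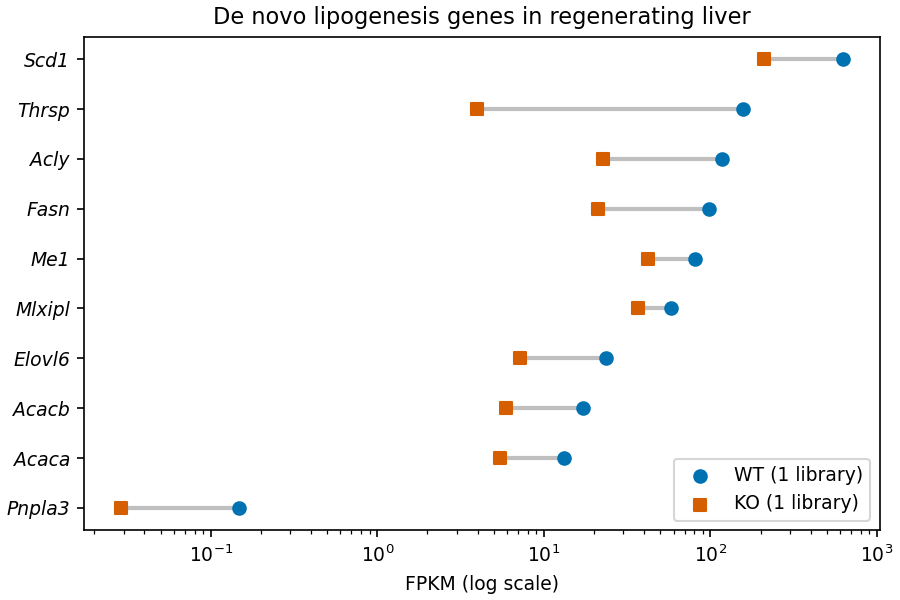
FPKM (log scale) of the 10 lipogenesis genes in WT (circles) and KO (squares), ordered by the WT value, with 1 library per genotype and no error bars. Each KO value lies left of its WT value, and the widest gap is that of Thrsp, from 156 in WT to 3.95 in KO.

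Acly encodes ATP citrate lyase, which supplies cytosolic acetyl-CoA. It stood at 118 FPKM in WT and 22.7 in KO, 5.21-fold lower in KO. The authors' comparison of Acly has the status FAIL in the table, although both values are given, and the value of this gene should be read with that in mind. The gene lies on the minus strand of chromosome 11, and its row covers chr11:100337665-100389314 on NCBIM37 (mm9), the build of the file.

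The acetyl-CoA carboxylases differ in place. Acaca encodes the cytosolic form, which feeds synthesis, and Acacb the form at the mitochondrial surface, whose malonyl-CoA restrains fatty acid oxidation. Acaca stood at 13.2 FPKM in WT and 5.43 in KO, 2.43-fold lower in KO. Acacb had 17.2 and 5.96, 2.88-fold lower. Acaca lies on the plus strand at chr11:83943174-84215153, a span that also holds Gm11437 and Gm17722, and Acacb on the plus strand at chr5:114596544-114700770, which also holds Gm13784 (all mm9). Within a library the level of Acacb was 1.30 times that of Acaca in WT and 1.10 times in KO, so both forms were lower together and kept nearly equal levels. These ratios do not depend on how the libraries were scaled.

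Fasn, the multifunctional synthase that makes palmitate, stood at 98.6 FPKM in WT and 21.2 in KO, 4.65-fold lower in KO. Relative to Acaca its level was 7.47 times as high in WT and 3.90 times as high in KO. Me1 encodes cytosolic malic enzyme, a source of NADPH for the synthase. Its FPKM was 80.3 in WT and 42.1 in KO, 1.91-fold lower, which is just short of the 2-fold line. The level of Acly was 1.47 times that of Me1 in WT and 0.538 times in KO, so the order of these genes was opposite in the 2 genotypes. Fasn lies on the minus strand at chr11:120667254-120685492. The row of Me1, on the minus strand at chr9:86474970-86593867, is 3920 bases wider than the annotated gene and overlaps 2 other genes, so their reads may be part of its value.

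Scd1, the stearoyl-CoA desaturase that makes oleate, was the most abundant gene of the set in both libraries. Its FPKM was 628 in WT and 210 in KO, 2.99-fold lower in KO. Scd1 lies on the minus strand at chr19:44468941-44482350, and Elovl6 on the plus strand at chr3:129235304-129341413. Elovl6, which lengthens palmitate to stearate, had 23.5 in WT and 7.14 in KO, 3.29-fold lower. The other Scd genes lie close to Scd1 and resemble it in sequence, so reads can be shared among them. Scd2 stood at 3.10 FPKM in WT and 0.877 in KO, Scd3 had 6.20 and 1.76, and Scd4 had 0.280 and 0.0926. They were 3.54-fold, 3.52-fold and 3.03-fold lower in KO, the last with a counting interval of 1.74 to 5.65, at levels far below that of Scd1.

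Thrsp encodes Spot 14, a small nuclear and cytosolic protein that is induced by thyroid hormone and by sugar and goes with lipogenesis. The gene lies on the minus strand at chr7:104561448-104566240 (mm9). It showed the largest difference of the set, with 156 FPKM in WT and 3.95 in KO, 39.4-fold lower in KO. Ordered from the lowest log2 KO/WT, Thrsp came 38th of the 11723 genes. Acly came 244th, Fasn 277th, Elovl6 404th, Scd1 451st, Acacb 484th and Acaca 651st. Mid1ip1, the relative of Thrsp whose product promotes polymerization of acetyl-CoA carboxylase, had 17.0 in WT and 4.61 in KO, 3.69-fold lower. Thrsp was 9.15 times as high as Mid1ip1 in WT and 0.857 times as high in KO.

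Mlxipl encodes ChREBP, the sugar-responsive transcription factor of the route, and lies on the plus strand at chr5:135582761-135614254 (mm9). It had the smallest difference of the set, with 58.0 FPKM in WT and 36.7 in KO, 1.58-fold lower in KO. It came 1900th in the order from the lowest, and Me1 came 1097th. After centring on the median of all genes, the log2 KO/WT was -0.42 for Mlxipl and -0.69 for Me1, against -1.03 for Acaca, the next gene.

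Pnpla3 encodes adiponutrin, an acyltransferase and lipase-like protein of lipid droplets that is strongly fed-induced in mouse liver, and lies on the plus strand at chr15:83998246-84019942 (mm9). Its FPKM was 0.147 in WT and 0.0288 in KO, the lowest of the set in both libraries. About 37.3 and 7.42 fragments stood behind these values, and the ratio of 5.12-fold lower in KO had a counting interval of 2.37 to 14.3 (95%, exact binomial). Fragments were estimated from the steps between the lowest FPKM values of single-exon genes, and such intervals cover counting error only. One fragment on 1 kb of transcript was worth 0.0183 FPKM in WT and 0.0180 in KO, so the depths of the libraries stood at 1.02 to 1. The other 9 genes rested on 280 fragments (Thrsp in KO) to 165477 fragments (Scd1 in WT), and the counting interval of Thrsp was 35.0-fold to 44.6-fold. For Mlxipl it was 1.53-fold to 1.62-fold, and for Acaca 2.33-fold to 2.54-fold. Variation between mice, which was not measured, is not part of these intervals.

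**Figure D2:**
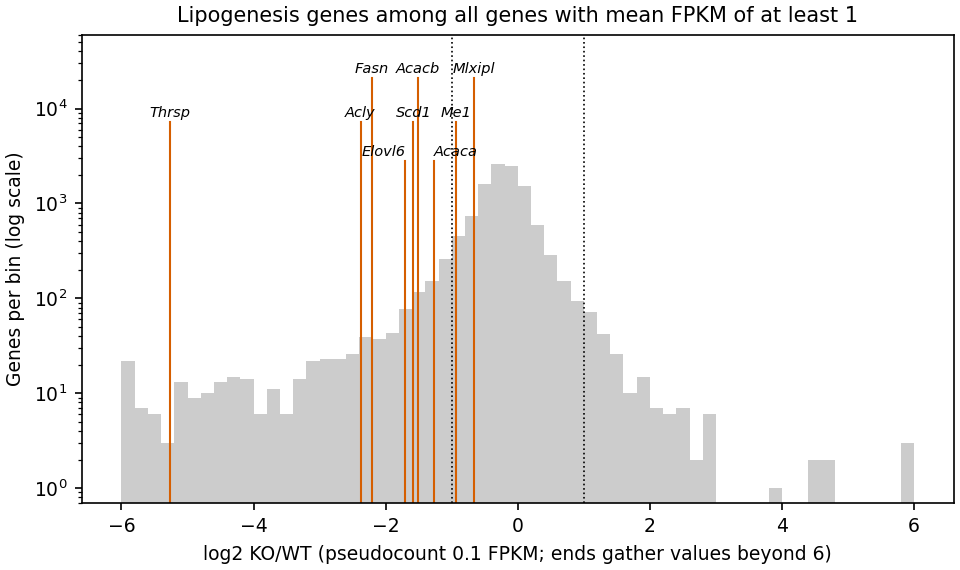
Number of genes (log scale) by log2 KO/WT in bins of equal width for the 11723 genes that averaged 1 FPKM or more (grey, end bins holding all values beyond), with a vertical line at each of the 9 lipogenesis genes that reached this level and dotted lines at 2-fold. The lines lie to the left of the peak, from Mlxipl at -0.66 to Thrsp at -5.27.

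The summed FPKM of the 10 genes was 1192 in WT and 355 in KO. Scd1 made up 52.7% of this sum in WT and 59.1% in KO. The share of Thrsp was 13.1% in WT and 1.11% in KO, which moved it from the 2nd to the 9th place in order of level. Me1 and Mlxipl moved up, Me1 from 6.73% to 11.9% and Mlxipl from 4.86% to 10.3%. Acly and Fasn held 9.91% and 8.26% of the sum in WT and 6.37% and 5.96% in KO. The set thus had another make-up in the KO library. As these are shares of a sum, the larger shares of genes with the smallest differences follow from the folds above.

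The region just before the start of transcription is where SREBP1c, ChREBP and their partners NF-Y and Sp1 are known to act on several of these genes. The RefSeq promoter windows used (GRCm38.p6, 250 bases before to 50 bases after each start) held 11 windows for 9 of the 10 genes, and there was no entry for Scd1. Shown are 150 bases before the start for Thrsp, Fasn and Acly, which had the largest log2 differences of the set, and for Mlxipl, which had the smallest. The windows lie at chr7:97417551-97417700 (minus strand), chr11:120824548-120824697 (minus strand), chr11:100528001-100528150 (minus strand) and chr5:135089740-135089889 (plus strand, the first of 2 Mlxipl starts). Capitals mark matches on either strand to CCAAT (the box bound by NF-Y), GGGCGG (the GC box bound by Sp1), CACGTG (an E-box) and CACNCCAC (an SREBP-like element), with overlapping matches of CCAAT both counted.
Thrsp: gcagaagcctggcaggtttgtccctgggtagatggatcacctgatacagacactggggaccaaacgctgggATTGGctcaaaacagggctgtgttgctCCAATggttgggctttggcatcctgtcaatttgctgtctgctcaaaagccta
Fasn: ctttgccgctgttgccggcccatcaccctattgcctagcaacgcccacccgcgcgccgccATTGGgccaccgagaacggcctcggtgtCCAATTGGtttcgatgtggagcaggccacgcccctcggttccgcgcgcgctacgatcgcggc
Acly: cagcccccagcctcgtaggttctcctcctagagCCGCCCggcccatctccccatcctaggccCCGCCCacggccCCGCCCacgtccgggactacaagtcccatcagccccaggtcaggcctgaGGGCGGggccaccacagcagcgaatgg
Mlxipl: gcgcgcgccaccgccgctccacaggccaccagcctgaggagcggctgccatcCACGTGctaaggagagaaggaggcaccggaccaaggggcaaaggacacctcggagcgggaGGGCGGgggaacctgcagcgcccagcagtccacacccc

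A CCAAT match stood in 7 of the 11 windows, those of Acacb, Acly, Fasn, Pnpla3 and Thrsp and 1 each of Me1 and Mlxipl, and in 37.4% of all 32851 windows of the same length. In the Thrsp window the matches begin 79 and 52 bases before the start, and in the Fasn window 90, 62 and 59 bases before it. In the Acacb window the match begins 87 bases before the start, and in the Acly window it lies after the start. GGGCGG matched in 4 of the 11 windows, of Acly, Me1, Mlxipl and Pnpla3, a share near the 35.7% of all windows. CACGTG and CACNCCAC each matched in 1 of the 11 windows, both times of Mlxipl, against 7.15% and 6.24% of all windows. A match describes letters in these windows and is not a measured site. The Acaca window, which held no match, may lie inside the gene, so the sequence before the annotated start of Acaca was not necessarily searched.

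**Figure D3:**
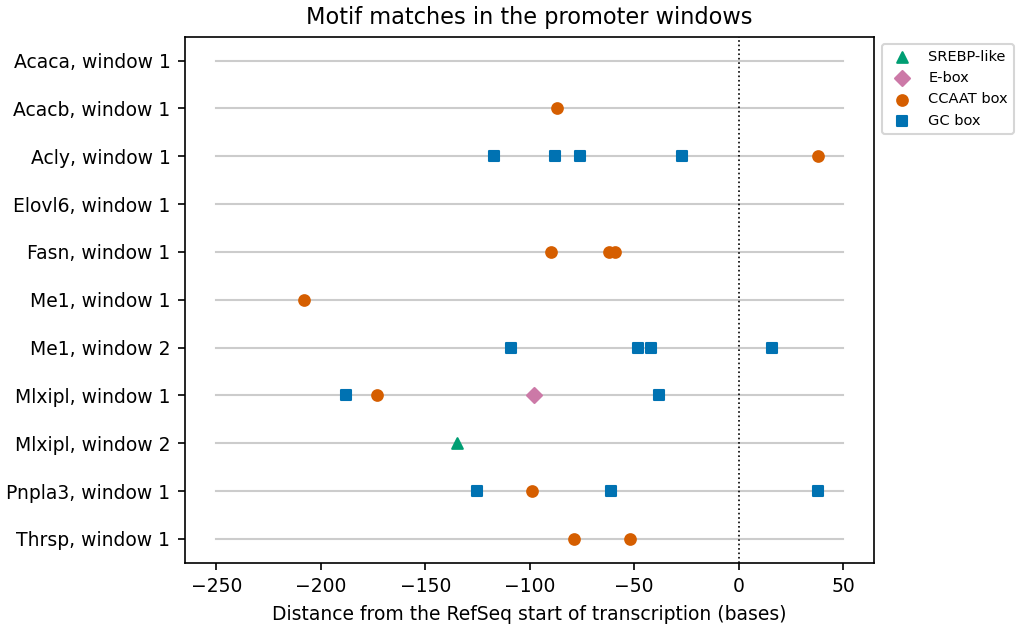
Positions of the motif matches in the 11 RefSeq promoter windows of 9 lipogenesis genes, as distance in bases from the start of transcription (dotted line), with a symbol for each motif. CCAAT matches (circles) begin 79 and 52 bases before the start of Thrsp, while the windows of Acaca and Elovl6 hold none of the motifs. The Acaca window lies further from the annotated mm9 start of its gene than the Acly and Fasn windows do on the same chromosome. Positions were not converted between builds, so this window may lie inside the gene, away from the annotated start.

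The regulators above these genes went different ways. Like the set, the list of SREBP and LXR control genes and those that follow were written with earlier results of these data known. Of the 12 measured genes of SREBP and LXR control, 2 were at least 2-fold lower in KO and 1 at least 2-fold higher. The shares among all genes were 8.23% and 1.71%. The median log2 KO/WT of the list was -0.21, which became 0.02 after centring on all genes and 0.06 with equal upper quartiles. Srebf1 stood at 46.6 FPKM in WT and 9.21 in KO, 5.06-fold lower, near the fold of Acly and Fasn. Its row is 94157 bases wider than the annotated gene and also overlaps Rai1 and 4930412M03Rik, so reads of these genes may be part of the value. Insig1, which holds SREBP in the endoplasmic reticulum and is itself an SREBP target, had 205 in WT and 31.3 in KO, 6.53-fold lower. Insig2, its relative, had 116 in WT and 368 in KO, 3.17-fold higher. Insig1 was 1.77 times as high as Insig2 in WT and 0.0853 times as high in KO. Srebf2, which encodes the sterol-responsive SREBP2, had 19.1 and 13.3. Nr1h3, which encodes the oxysterol receptor LXRα, had 47.7 and 54.6 on a row shared with Madd and Gm13783. Rxra, the partner receptor of LXR and PPAR, had 91.2 and 114.

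The partners of ChREBP and the genes of sugar entry stayed within 2-fold as deposited, 10 of 10 measured genes. So did 10557 of all 11723 genes. The median log2 of the list was 0.08, with 0.31 after centring and 0.35 with equal upper quartiles. Mlx, the dimer partner of ChREBP, had 67.1 and 63.7 on a row shared with Coasy. Khk, the ketohexokinase, had 144 and 162 on a row shared with Emilin1. G6pc, the glucose-6-phosphatase, had 55.3 in WT and 109 in KO, 1.97-fold higher, and passed 2-fold after centring, at 1.22 on the log2 scale.

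Among the 12 genes that supply acetyl-CoA and NADPH, 2 were at least 2-fold lower in KO and none 2-fold higher. For all genes these shares were 8.23% and 1.71%. The list had a median log2 of -0.52 that was -0.28 after centring and -0.24 with equal upper quartiles. Acss2, which makes cytosolic acetyl-CoA from acetate, had 105 in WT and 18.2 in KO, 5.76-fold lower. The level of Acly was 1.12 times that of Acss2 in WT and 1.24 times in KO, so both sources of cytosolic acetyl-CoA were lower to a like degree. The other gene past 2-fold was Pgd of the pentose phosphate route, named after its values were seen, with 34.4 and 11.3. Slc25a1, the citrate carrier that stands before Acly, had 125 and 76.3, 1.63-fold lower. The cytosolic dehydrogenases Mdh1 and Idh1 had 429 and 242, and 191 and 132. Pcx, the pyruvate carboxylase of the mitochondrion, had 94.1 and 129, 1.38-fold higher.

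Genes that set the supply and use of malonyl-CoA had a median log2 of -0.16 over 9 measured genes, which became 0.07 after centring and 0.11 with equal upper quartiles. Mid1ip1 was the only gene of this list past 2-fold, while 8.23% of all genes were at least 2-fold lower. Cpt1a, the mitochondrial carnitine palmitoyltransferase that malonyl-CoA inhibits, had 55.2 in WT and 86.9 in KO, 1.58-fold higher. Mlycd, which breaks malonyl-CoA down, had 24.0 and 31.0, and Stk11, the kinase upstream of AMPK, had 31.1 and 27.7. The 7 mitochondrial fatty acid synthesis genes, a separate route, had 5 measured members with none past 2-fold and a median log2 of -0.24, equal to that of all genes, which became 0.03 with equal upper quartiles. Ndufab1, the mitochondrial acyl carrier protein, had 67.5 and 48.7, Cbr4 had 15.3 and 12.9, and Mecr had 13.1 and 15.1.

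**Figure D4:**
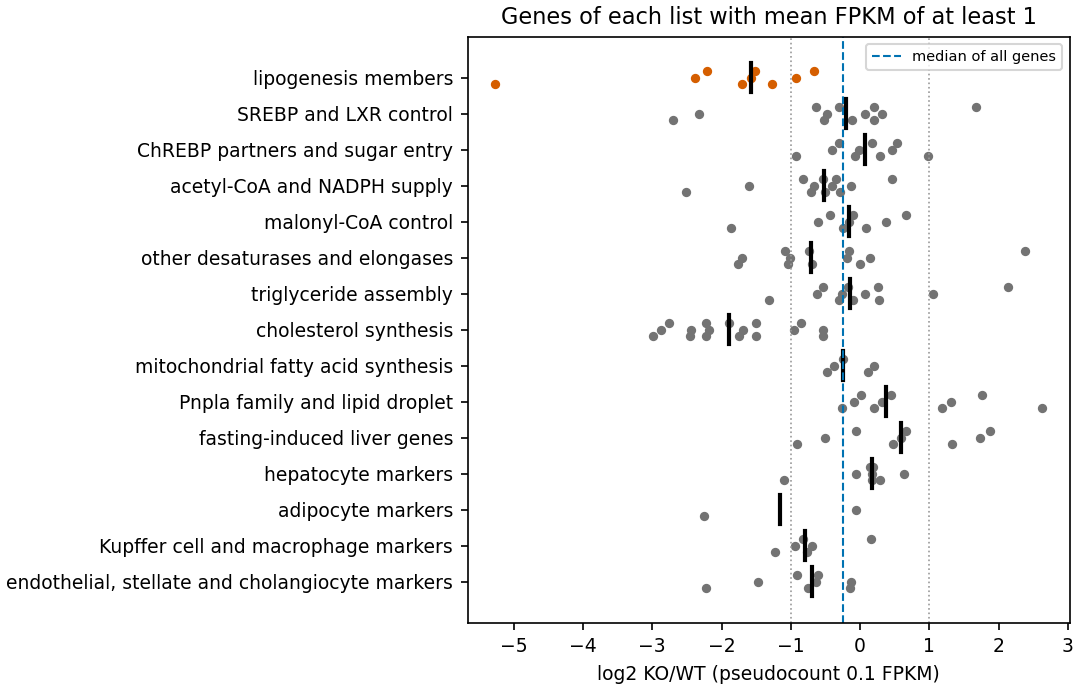
log2 KO/WT of every gene that averaged 1 FPKM or more in the lipogenesis set (top) and 14 other lists, with a black bar at each list's median, a dashed line at the median of all genes and dotted lines at 2-fold. The lipogenesis median of -1.58 and the cholesterol synthesis median of -1.89 lie left of the line at 2-fold. So does the adipocyte marker median of -1.16, which rests on 2 measured genes.

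Compared with the routes next to it, the set stood nearest to cholesterol synthesis. Beside the counts that follow, 8.23% of all genes were at least 2-fold lower in KO and 1.71% at least 2-fold higher. Of 17 measured genes of cholesterol synthesis, 13 were at least 2-fold lower in KO and none higher, with a median log2 of -1.89. Among those at least 4-fold lower were Fdft1 (4.56-fold), Idi1, Dhcr7, Sc5d, Fdps, Lss and Pmvk (7.45-fold). Other desaturases and elongases had 5 of 12 genes at least 2-fold lower, 1 higher and a median log2 of -0.71. This median was -0.47 after centring, -0.44 with equal upper quartiles and -0.19 over genes averaging 5 FPKM or more. Fads2, the delta-6 desaturase, was 2.06-fold lower, while the elongases Elovl2 and Elovl5 had 151 and 152, and 108 and 119. Elovl3 was 5.22-fold higher in KO, with 41.5 and 217, so that the elongase genes differed in direction. Elovl6 was 0.217 times as high as Elovl5 in WT and 0.0599 times as high in KO.

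Triglyceride assembly, the step that uses the fatty acids, had 1 of 12 genes at least 2-fold lower and 2 higher. The share lower was near the 8.23% of all genes, of which 1.71% were at least 2-fold higher. The median log2 of the list was -0.14, which became 0.10 after centring and 0.14 with equal upper quartiles. Dgat2, which adds the last acyl chain, had 129 in WT and 120 in KO, and the acyltransferases Agpat3 and Agpat2 had 94.4 and 113, and 92.2 and 111. The gene past 2-fold lower was Gpam, the first acyltransferase of the mitochondrial surface and like Fasn an SREBP1c target, with 59.8 and 24.0. Those past 2-fold higher were Mogat1, with 0.369 and 1.95, and Agpat9, with 2.23 and 4.75. Gpam and Agpat9 were named after their values were seen. No difference between these lists was tested, since there was 1 library per genotype.

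The liver label and the presence of other cells were checked with marker lists. Hepatocyte markers had a summed FPKM of 14267 in WT and 15061 in KO, over 8 of 9 genes, with Alb left out because the authors' program gave no usable estimate for it. Ahsg had 5309 and 5991, Apoa1 had 3061 and 3503, and Ttr had 2503 and 2406. Of the hepatocyte markers 1 was 2-fold lower, against 8.23% of all genes. That marker was Cps1, named after its values were seen, with 1597 and 743. Lipogenesis genes are also abundant in fat tissue, and of the 8 adipocyte markers Lep and Ucp1 were listed at 0 in both libraries. Adipoq and Plin1, which define adipocytes, were at 0.0256 and 0.0245 in WT and listed at 0 in KO. Cfd had 0.312 in WT and was listed at 0 in KO, Adrb3 had 1.75 and 0.289, and Fabp4, which endothelial cells also express, had 18.1 and 17.4. The sum of the 8 was 20.3 in WT and 17.7 in KO, and most of it was Fabp4. Each other adipocyte marker above 0 in WT was lower in KO, all but Adrb3 on few fragments. Kupffer cell and macrophage markers were lower in KO for 5 of 6 genes, near the 75.6% of all genes that were lower by any amount, with sums of 52.8 and 33.8. Their median log2 was -0.79, and -0.55 after centring, so they were lower by more than the median of all genes. Cd5l had 18.4 and 10.8, Clec4f had 17.3 and 10.6, and Marco had 6.58 and 7.37. Endothelial, stellate and cholangiocyte markers were lower for 8 of 8 measured genes, against 75.6% of all genes, with sums of 37.1 and 19.9 over all 9. The median log2 over the 8 was -0.69, and -0.45 after centring. Of the 8, Des and Sox9 were at 0.10 and 0.11 on the log2 scale after centring. Stab2 had 9.66 and 6.23, Pecam1 had 5.21 and 3.40, and Col1a1 had 8.56 and 1.75. The part of these cells in the lipogenesis differences was not tested.

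Ppard, the targeted gene, had 2.67 in WT and 2.42 in KO over its whole row (chr17:28369699-28438414, mm9), which does not tell the libraries apart and does not check a deletion of single exons. Its counting interval ran from 0.965-fold to 1.26-fold.

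**Figure D5:**
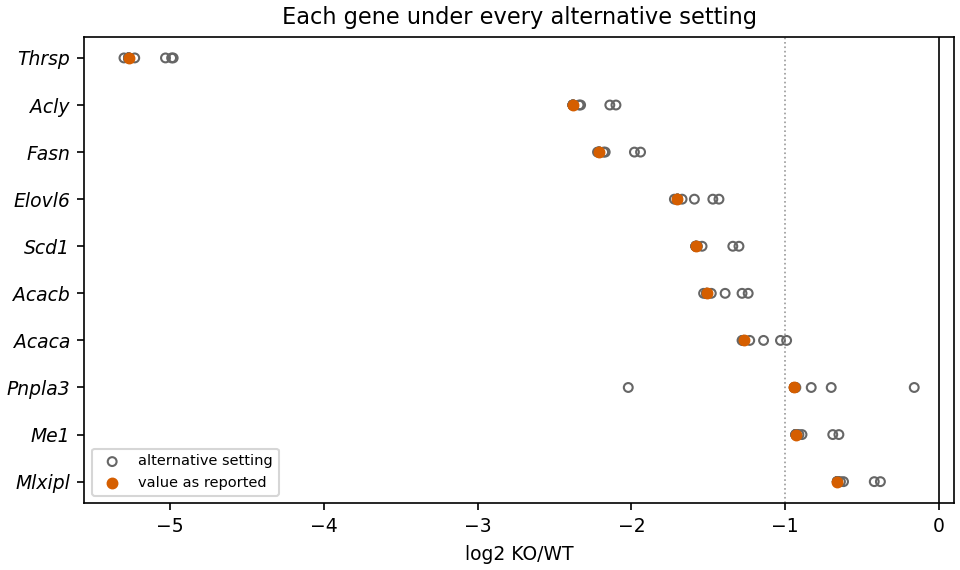
log2 KO/WT of the 10 lipogenesis genes as reported (filled points) and under each alternative of pseudocount, scaling, filter and row choice (open points), with a dotted line at 2-fold and a solid line at 0. No open point lies right of 0, and Pnpla3, from -2.02 to -0.16, has the widest range.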

How the data were processed

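Liver RNA of 1 WT and 1 KO sample was sequenced on an Illumina instrument; the sources differ on single or paired end reads. The authors aligned reads with TopHat (2.0.0) to mm9, assembled transcripts with Cufflinks (1.3.0) and estimated FPKM per locus with Cuffdiff, and these FPKM values were deposited as 1 table of 38016 rows. Its columns of fold change, test statistic, p-value and q-value hold the authors' own comparison and were not used. The members and gene lists were chosen with earlier results of these data known.

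Rows with status HIDATA (21) were left out, since the authors' program gave no usable estimate for loci with too many fragments, 846 rows naming several symbols counted for each, and rows of a symbol were summed. Values were computed with scipy 1.17.1, pandas 2.3.3 and numpy 2.4.6 in Python 3.11.15, and steps were checked on simulated data. log2 ratios used a pseudocount of 0.1 FPKM, which understates differences of low genes. Fragments were estimated from 304 (WT) and 278 (KO) low values of single-exon genes of at least 600 nt and the longest transcript in GENCODE vM1 (NCBIM37), with Clopper-Pearson intervals of the ratio. Promoter windows came from RefSeq (GRCm38.p6), and no coordinate was converted. Genes named were the 10 members, Ppard, their fixed regulators and relatives, and of each list the 3 most abundant and those past 4-fold with a mean FPKM of at least 1, some of which are not reported here. No test was run, since no group had replicates.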

Additional observations from a re-analysis of the deposited data

How the results depend on the processing

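Between 6 and 9 of the lipogenesis genes passed the line under every alternative, 9 at 1.5-fold, 6 with equal upper quartiles, where Acaca was at -0.99, and 6 with rows of status OK only. The median log2 of the set, -1.58 as reported, was -1.55 without the filter on low values and with rows of status OK only (which drops Acly), -1.54 with equal sums of FPKM, -1.34 after centring on the median of all genes and -1.30 with equal upper quartiles. The count of all genes at least 2-fold lower and higher, 965 and 201 as reported, was 1676 and 384 without the filter, 397 and 122 with genes averaging 5 FPKM or more, 630 and 347 with equal upper quartiles and 2235 and 468 at 1.5-fold, and the count higher was 315 after centring. The medians of some lists changed sign, and all of these but that of the adipocyte markers lay near the median of all genes. After centring and with equal upper quartiles, the medians became 0.02 and 0.06 for SREBP and LXR control, 0.07 and 0.11 for malonyl-CoA control and 0.10 and 0.14 for triglyceride assembly. With equal upper quartiles, that of mitochondrial fatty acid synthesis became 0.03. That of the adipocyte markers, -1.16 as reported over 2 measured genes, became 0.22, where Fabp4 alone was measured. No member changed sign. The depth limits Pnpla3 alone among the members. No leave-one-out analysis was possible, as a genotype would then have no sample. No paired analysis was possible because each genotype was represented by 1 library.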

Other observations

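Several genes that hold fat in droplets had higher values in the KO library, while the genes that make fatty acids had lower ones. Of 10 measured genes of the Pnpla family and lipid droplet list, 4 were at least 2-fold higher in KO and none 2-fold lower. Among all genes, 1.71% were at least 2-fold higher and 8.23% at least 2-fold lower. The list had a median log2 KO/WT of 0.37 that was 0.20 without the filter on low values, 0.61 after centring and 0.65 with equal upper quartiles. Plin2, the main droplet coat protein of hepatocytes, stood at 142 FPKM in WT and 480 in KO, 3.38-fold higher. G0s2, an inhibitor of triglyceride lipase, had 12.8 and 80.1, 6.24-fold higher. The others past 2-fold were Cidec, with 3.08 and 7.84, and Plin5, with 14.4 and 32.7 on a row shared with Plin4, both named after their values were seen. Cideb had 143 and 164, and Pnpla7 had 80.0 and 108 on a row shared with Nelf. Among the relatives of Pnpla3, Pnpla2, the adipose triglyceride lipase, had 37.1 and 37.8, and Pnpla5 had 0.00977 in WT and was listed at 0 in KO.

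Genes that fasting induces in liver had 9 measured members and a median log2 of 0.59 (0.90 with equal upper quartiles). At least 2-fold higher were 3 of them and none was 2-fold lower, against 1.71% and 8.23% of all genes. Igfbp1 and Pdk4, named after their values were seen, were 3.33-fold and 2.58-fold higher. Pck1, the gluconeogenic carboxykinase, had 852 and 818, and Tat had 1115 and 595.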
